A study of Rattus norvegicus with 22 samples.

Results

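The genes described here are 9 genes of the mitochondrial oxidation of long and medium-chain fatty acids, namely Cpt1a, Slc25a20, Cpt2, Acadvl, Acadl, Acadm, Hadha, Hadhb and Decr1. They were taken by name from the array, which carries 26276 gene names, and 10 probes matched, 2 of them for Hadha. The expression of these genes was measured in the liver of male Sprague–Dawley rats, 8 weeks old at the start, that received 1 of 2 semi-synthetic diets. The control diet (CD) had lard as its main fat. The biologically active substances-enriched diet (BASE-diet, BD) carried probiotic bacteria (1%, Lactobacillus acidophilus LA-5 with Bifidobacterium animalis ssp. lactis), pumpkin puree and a hydrolysed extract of linden flowers (8% each), and its fat was in part salmon fat (6% of the diet) where the control diet had lard. Livers came from 5 rats after 3 months of the control diet (CD 3), 5 after 3 months of the BASE-diet (BD 3), 6 after 14 months of the control diet (CD 14) and 6 after 14 months of the BASE-diet (BD 14). Each rat was hybridised on 1 array of its own. The additives were given together, so no difference between the diets can be assigned to any of them.

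In liver, long-chain fatty acids reach the mitochondrial matrix as carnitine esters. Cpt1a at the outer membrane makes the ester, Slc25a20 exchanges it across the inner membrane, and Cpt2 returns it to coenzyme A. Chain shortening then runs through acyl-CoA dehydrogenases that differ in the chain length they prefer and, for long chains, through the trifunctional protein made of Hadha and Hadhb. Double bonds of unsaturated fatty acids need auxiliary enzymes such as Decr1. The acetyl-CoA that is formed feeds ketone body synthesis in hepatocytes, and the nuclear receptor Ppara, which binds fatty acids, is known to drive many of these genes.

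All values of a gene are the log2 ratio of the rat's signal (Cy5) to that of a common reference (Cy3), a pool of liver RNA from healthy 10-week-old rats outside the experiment. A value of 0 means the level of that pool, and differences are on the log2 scale. The labels put every rat in Cy5 and the reference in Cy3, whereas the study's methods text puts control rats in Cy3 and BASE-diet rats in Cy5. On that reading the control ratios would turn sign and the dye would follow the diet, so every diet difference given here rests on the labels. With the labels' direction, the log2 ratios of a control and a BASE-diet array correlated over all tested probes at a median r of 0.31 (-0.04 to 0.62, 121 pairs), those of a pair of control arrays at 0.31 and those of a pair of BASE-diet arrays at 0.34. All 10 probes were well above background in both dyes on all 22 arrays and no array had a saturated spot of any of them. The probes with 10 spots per array agreed closely between spots, with a median SD of 0.03 for Cpt1a and 0.05 for Hadhb (log2), far below the spread between rats.

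Between 52.4% and 93.6% of the spots of an array were well above background in Cy5. There were 5 slides, and no day of scanning was shared by any pair of them. All BD 14 arrays shared 1 slide with CD 14 rats 4 and 5, and only 1 slide, with CD 3 rat 1 and BD 3 rats 1 and 2, held both diets at 3 months. All 7 hepatocyte markers were detected on every array. CD 3 rat 4 had the lowest share of detected spots, and the median log2 ratio of its hepatocyte markers was -1.56, against -0.49 to 0.55 on the other 21 arrays. The summed Cy5 signal of these markers was 699849 in this rat, within the range of the other 21 arrays, 366626 to 1086260. CD 14 rat 3 had 88.8% of spots detected and a hepatocyte median of 0.44. These 2 rats were the lowest of their groups for 6 and 8 of the 9 genes, so results are also given without them. As these are whole livers, fewer cells of a type and less RNA per cell cannot be told apart.

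In the mean, the BASE-diet livers held more mRNA of these genes than the control livers, and the largest differences after 14 months were those of Cpt1a, Hadhb and, on the brighter of its 2 probes, Hadha. At 14 months all 9 genes were higher in the BD 14 mean than in the CD 14 mean, by 0.20 to 1.06 and with a median of 0.55 (log2), against a median of 0.05 over all 19434 tested probes, of which 56.3% were higher. At 3 months 8 of the 9 genes were higher in BD 3, with a median of 0.38 against 0.03 over all probes, of which 53.6% were higher. The exception was Acadvl. Without CD 3 rat 4, 6 of the 9 were higher at 3 months, with a median of 0.14 and none under an unadjusted p of 0.05 (6.05% of all probes were, in either direction). The groups of the 9 genes all overlapped at 3 months, where 0.515% of all probes were higher in BD 3 without overlap. None of the 9 passed limma with Benjamini-Hochberg adjustment over all probes in either comparison (0.0% of all probes passed in both), and the lowest adjusted p was 0.931 at 14 months and 0.54 at 3 months. At an unadjusted p under 0.05, 4 of the 9 were higher at 14 months (3.79% of all probes were) and 2 at 3 months (4.99% of all probes). The analysis of variance and Tukey test of the study's methods, run on the same values, also left 0 of the 9 after adjustment (0.00515% of all probes passed at 14 months and 0.0% at 3 months) and, unadjusted, 1 at 14 months (0.952% of all probes) and 0 at 3 months (2.08%).

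**Figure D1:**
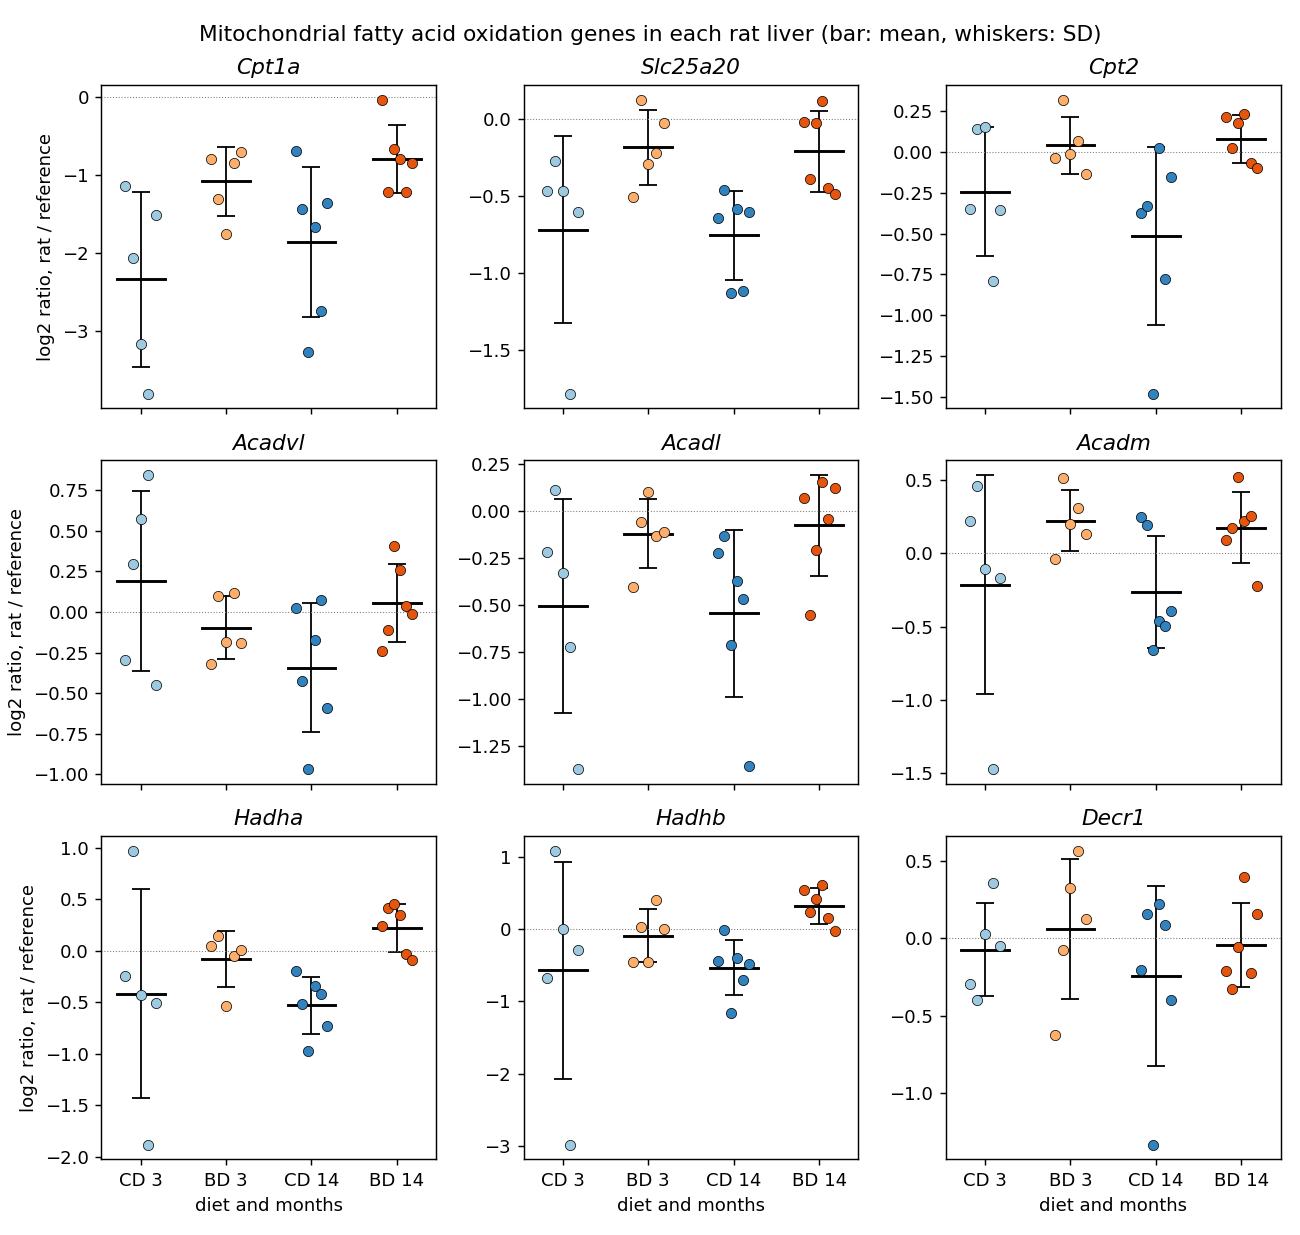
Log2 ratio of each rat to the common reference (vertical axis, a separate scale for each gene) for the 9 genes, with 1 point per rat, 5 rats in CD 3 and BD 3 and 6 in CD 14 and BD 14, the mean as a bar and the SD as whiskers. Hadha at 14 months is the only panel in which the 2 diets of the same age do not overlap, and the lowest CD points of most panels are CD 3 rat 4 and CD 14 rat 3.

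The carnitine shuttle held the gene with the largest diet difference at both ages. Cpt1a, the rate-controlling step of long-chain fatty acid entry, stood at -1.14, -2.07, -3.17, -3.81 and -1.52 in CD 3 rats 1 to 5. In BD 3 it stood at -0.80, -1.30, -1.75, -0.84 and -0.70. The 5 BD 3 rats thus lay close together in the upper range, and CD 3 rats 1 and 5 overlapped with them. The BD 3 mean was -1.08 ± 0.44 (SD, n = 5) and the CD 3 mean -2.34 ± 1.12 (SD, n = 5), a difference of 1.26 with a standard error of 0.48 (limma, unadjusted p = 0.0147, adjusted p = 0.54), or 2.40-fold. At 14 months Cpt1a ranged from -3.28 to -0.69 with a median of -1.55 in CD 14, and from -1.22 to -0.03 with a median of -0.82 in BD 14. CD 14 rats 2 to 6 lay below every BD 14 rat, and CD 14 rat 1 lay above all BD 14 rats but 1 and 3. The means were -0.80 ± 0.44 (SD, n = 6) and -1.86 ± 0.96 (SD, n = 6), a difference of 1.06 with a standard error of 0.43 (limma, unadjusted p = 0.0228, adjusted p = 0.952).

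In order of the group means Cpt1a ran CD 3, CD 14, BD 3 and BD 14. Neither the step from CD 3 to CD 14, 0.48 (95% interval -0.47 to 1.42), nor that from BD 3 to BD 14, 0.28 (-0.66 to 1.23), went beyond the spread. The first of these steps was 0.11 without CD 3 rat 4 and -0.21 with slides blocked. Fitting slides as blocks gave Cpt1a a 3-month difference of 0.37 and a 14-month difference of 1.41. On the slide with both diets at 3 months, CD 3 rat 1 stood at -1.14, between its 2 BD 3 neighbours at -0.80 and -1.30. Without CD 3 rat 4 the difference at 3 months was 0.90, and without CD 14 rat 3 that at 14 months was 0.78. In the Cy5 signal alone it was 1.43 and 0.71.

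Slc25a20, the carnitine-acylcarnitine carrier, was higher in the BASE-diet mean by nearly the same amount at both ages. It stood at -0.47, -0.27, -0.47, -1.79 and -0.61 in CD 3 and at -0.51, 0.12, -0.29, -0.23 and -0.03 in BD 3. CD 3 rat 4 lay far below the other 4 rats of its group, which overlapped with BD 3. The difference was 0.54 with a standard error of 0.24 (limma, unadjusted p = 0.0381, adjusted p = 0.673), and 0.27 without CD 3 rat 4. At 14 months the values ran from -1.13 to -0.46 with a median of -0.62 in CD 14, and from -0.49 to 0.11 with a median of -0.21 in BD 14. Only the highest CD 14 rat, rat 2, lay within the BD 14 range, above BD 14 rat 6 alone. Here the difference was 0.55 with a standard error of 0.22 (limma, unadjusted p = 0.0221, adjusted p = 0.952), 0.47 without CD 14 rat 3 and 0.64 with slides blocked.

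Cpt2, the inner membrane enzyme, had the lowest unadjusted p of the 9 genes between the diets at 14 months. Its values ran from -1.48 to 0.03 with a median of -0.36 in CD 14, and from -0.10 to 0.23 with a median of 0.10 in BD 14. The BD 14 rats lay close together, and of the CD 14 rats only rat 4 was among them. The means were 0.08 ± 0.15 (SD, n = 6) and -0.52 ± 0.54 (SD, n = 6), a difference of 0.60 with a standard error of 0.22 (limma, unadjusted p = 0.0116, adjusted p = 0.931), 0.40 without CD 14 rat 3. At 3 months Cpt2 was at -0.35, 0.14, 0.15, -0.79 and -0.36 in CD 3 and at -0.04, 0.32, -0.01, 0.07 and -0.13 in BD 3. The groups overlapped and the difference was 0.28 (95% interval -0.21 to 0.77), 0.14 without CD 3 rat 4.

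None of the 3 acyl-CoA dehydrogenases, which take the first step of each oxidation cycle, had an unadjusted p under 0.05 between the diets. Acadm, the medium-chain enzyme, differed by 0.44 at both ages, with 95% intervals of -0.14 to 1.01 at 3 months and -0.09 to 0.96 at 14 months. At 14 months its values ran from -0.66 to 0.24 with a median of -0.43 in CD 14, and from -0.23 to 0.52 with a median of 0.20 in BD 14. CD 14 rats 1 and 2 lay within the BD 14 range, and the other 4 were below all BD 14 rats. Without CD 14 rat 3 the 14-month difference was 0.36. At 3 months the lowest CD 3 value, -1.47, was again that of rat 4, and without it the difference was 0.12.

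Acadl, the long-chain enzyme, was higher in the BASE-diet mean by 0.38 at 3 months (95% interval -0.14 to 0.91) and by 0.47 at 14 months (-0.01 to 0.95). Its low outlying rats were others than for Acadm. The lowest value of CD 3 was -1.37 in rat 5 and that of CD 14 was -1.36 in rat 6, and these 2 arrays lay on the same slide with no BASE-diet array. Without them singly the differences were 0.17 and 0.31.

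Acadvl, the very long-chain enzyme, was the only gene of the 9 whose mean was lower in BD 3 than in CD 3. It stood at -0.30, 0.29, 0.57, 0.84 and -0.45 in CD 3 and at -0.32, 0.10, -0.19, 0.12 and -0.19 in BD 3. CD 3 rat 4, the lowest of its group in 6 genes, was the highest of all 22 rats in this one. The difference was -0.29 (95% interval -0.79 to 0.21), -0.13 without CD 3 rat 4 and -0.45 without CD 3 rat 5, and turned to 0.20 with slides blocked. At 14 months it was 0.40 (-0.06 to 0.86), with CD 14 at -0.97 to 0.07 (median -0.30) and BD 14 at -0.24 to 0.41 (median 0.01). Without CD 14 rat 3 it was 0.27, and with slides blocked 0.11. The difference between the 2 diet differences was 0.69 with a standard error of 0.33 (limma, unadjusted p = 0.0474, adjusted p = 0.999). It was the only one of the 9 with an unadjusted p under 0.05 in that test, where 4.8% of all probes had one. With slides blocked the 14-month difference of Acadvl was smaller than its 3-month one, so the direction of this result turned.

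The trifunctional protein, which carries out the last 3 steps of long-chain oxidation, is built from Hadha and Hadhb in equal number. The 2 genes are divergent neighbours. In the RefSeq promoter table of build GRCr8 their start sites lie 301 bases apart on chromosome 6, and the windows of 250 bases upstream share 200 bases. This stretch, chr6:31907551-31907750 on the plus strand, is upstream of Hadha in 1 direction and of Hadhb in the other. It is shown because both genes, described next, varied together between rats on the brighter of the 2 Hadha probes (r = 0.91). The other Hadha probe had an r of 0.34 with Hadhb, and a part of the stretch in this was not tested. The capitals in the stretch mark the only match to GGGCGG, a core that Sp1-family factors bind. Both strands were searched, and the match is on the minus strand.

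Sequence upstream of Hadha and Hadhb: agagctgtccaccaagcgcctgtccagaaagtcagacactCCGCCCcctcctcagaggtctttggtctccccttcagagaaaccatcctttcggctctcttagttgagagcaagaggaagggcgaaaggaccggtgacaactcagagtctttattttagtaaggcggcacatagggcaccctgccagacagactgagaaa

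Of the 9 genes, 7 had a promoter window in the table (Acadl and Decr1 did not). GGGCGG occurred on either strand in 5 of the 7 (Acadm, Cpt2, Hadha, Hadhb and Slc25a20) and in 33.1% of all 33469 windows, the match in the shared stretch counting for both Hadha and Hadhb. The Ppara response element written as AGGTCANAGGTCA occurred in none of the 7 and in 0.0538% of all windows. An exact match in these 300 bases says nothing of sites elsewhere or of looser ones.

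Hadha, the alpha subunit, was the only gene of the 9 whose 14-month groups did not overlap. CD 14 ran from -0.97 to -0.20 with a median of -0.47, and BD 14 from -0.09 to 0.46 with a median of 0.29. Every BD 14 rat thus exceeded every CD 14 rat, as was so for 0.653% of all tested probes. The means were 0.22 ± 0.23 (SD, n = 6) and -0.53 ± 0.28 (SD, n = 6), a difference of 0.75 with a standard error of 0.30 (limma, unadjusted p = 0.0196, adjusted p = 0.952), or 1.69-fold. Blocking by slide gave 0.60, and it was 0.67 without CD 14 rat 3. At 3 months the values were -0.25, 0.97, -0.43, -1.88 and -0.51 in CD 3 and 0.04, 0.14, -0.54, -0.05 and 0.00 in BD 3. CD 3 held both the highest and the lowest rat of the 22, and the difference of 0.34 (95% interval -0.34 to 1.02) became -0.03 without CD 3 rat 4.

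Hadha had a second probe on the array, and the 2 did not tell the same story. The sequences are those of the array, plus strand, placed by the files on rn4, and they are shown because the result for Hadha depends on which is read. The first, chr6_random:467174-467737, spans 564 bases of genome for its 60 bases and so crosses an intron. The second lies in 1 piece at chr6_random:452613-452672.
Hadha probe A_44_P480296: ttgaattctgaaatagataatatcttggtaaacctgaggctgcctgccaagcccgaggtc
Hadha probe A_64_P055984: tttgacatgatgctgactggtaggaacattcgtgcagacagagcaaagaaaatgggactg

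The values above are from the first, printed in 2 spots per array and brighter in the mean, and the second had 1 spot. On the second probe the difference was 0.90 (95% interval 0.07 to 1.73) at 3 months and 0.27 (-0.49 to 1.03) at 14 months. Its CD 14 rats ran from -2.50 to 0.05 and its BD 14 rats from -1.74 to -0.31, with full overlap. Over the 22 arrays the 2 Hadha probes had a Pearson r of 0.29 with each other, and with Hadhb the first had an r of 0.91 and the second of 0.34. Both gave a higher BASE-diet mean at both ages, but not the same age as the one with the larger difference.

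Hadhb, the beta subunit, ran from -1.16 to -0.01 with a median of -0.46 in CD 14, and from -0.02 to 0.61 with a median of 0.33 in BD 14. The groups met only at their ends, where CD 14 rat 2 was just above BD 14 rat 6. The means were 0.32 ± 0.24 (SD, n = 6) and -0.53 ± 0.38 (SD, n = 6), a difference of 0.85 with a standard error of 0.42 (limma, unadjusted p = 0.0534, adjusted p = 0.952), 0.73 without CD 14 rat 3. At 3 months Hadhb stood at -0.67, 1.09, 0.00, -2.98 and -0.29 in CD 3 and at -0.45, 0.03, -0.45, 0.41 and 0.00 in BD 3. The distance between CD 3 rats 2 and 4 was the widest of any of the 9 genes within a group. The difference was 0.48 (95% interval -0.47 to 1.43) and -0.12 without CD 3 rat 4.

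Decr1, which reduces double bonds left by unsaturated fatty acids, differed least between the diets at both ages. It stood at -0.30, -0.40, 0.03, 0.36 and -0.05 in CD 3 and at -0.63, -0.08, 0.32, 0.57 and 0.12 in BD 3, fully overlapping, with a difference of 0.14 (95% interval -0.43 to 0.70), which ranged from 0.0096 to 0.31 with 1 rat left out. At 14 months the values ran from -1.33 to 0.22 in CD 14 (median -0.06) and from -0.33 to 0.40 in BD 14 (median -0.14), and the difference was 0.20 (-0.31 to 0.71). The lowest rat was again CD 14 rat 3, without which the difference was -0.02, and blocking by slide gave -0.20. In the Cy5 signal alone the 3-month difference was -0.36.

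**Figure D2:**
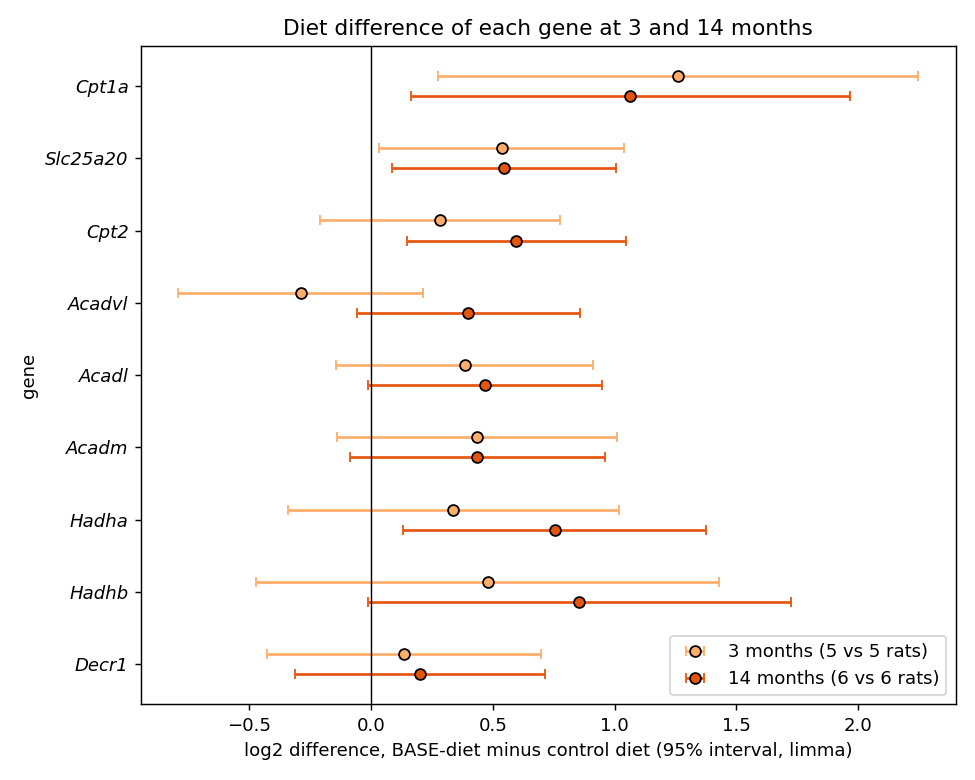
Log2 difference between BASE-diet and control diet (horizontal axis) for each of the 9 genes at 3 months (light) and 14 months (dark), with the 95% interval of the limma fit. At 14 months all points lie to the right of 0 and the intervals of Cpt1a, Slc25a20, Cpt2 and Hadha leave it out, and at 3 months those of Cpt1a and Slc25a20 do.

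From CD 3 to CD 14 the median difference of the 9 was -0.05, or -0.36 without CD 3 rat 4, and from BD 3 to BD 14 it was 0.04, against 0.03 and 0.07 over all probes. None passed the adjusted test (0.0% of all probes did in both comparisons, limma). At an unadjusted p under 0.05, 1 of the 9 was lower in CD 14 than in CD 3 (3.29% of all probes were) and 0 differed between BD 14 and BD 3 (7.44% of all probes did). The 1 gene was Acadvl, at -0.54 with a standard error of 0.23 (limma, unadjusted p = 0.0307, adjusted p = 0.434). The lowest of the 4 group means was CD 14 for 7 of the genes and CD 3 for Cpt1a and Hadhb. The highest was a BASE-diet group for 8, and CD 3 for Acadvl.

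The comparison of BD 14 with CD 3, in which both diet and time differ, was the only one with more than 0 adjusted calls over all probes apart from the test over all 4 groups, at 61 probes (0.314%), none of them of these genes. Cpt1a came nearest, at 1.54 with a standard error of 0.46 (limma, unadjusted p = 0.0027, adjusted p = 0.11), or 2.91-fold. Slc25a20 was the other gene with an unadjusted p under 0.05, at 0.51 (17.1% of all probes had one). Without CD 3 rat 2, which was high in Hadha and Hadhb, these 2 genes passed with adjusted p = 0.0272 and 0.0495 (limma), but 7.27% of all probes then passed, 1414 in place of 61. With slides blocked, or with only the groups compared, 0 of all probes passed, and without CD 3 rat 4 it was 3. In the test over the 4 groups the lowest adjusted p of the 9 was 0.318, for Cpt1a, where 0.0257% of all probes passed.

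At 14 months the SD was smaller in BD 14 than in CD 14 for all 9 genes, with a median SD of 0.24 against 0.40, and it was so for 53.7% of all probes. Without CD 14 rat 3 it was smaller for 6 of the 9, all but Slc25a20, Hadha and Decr1, and for 53.1% of all probes, and the CD 14 median SD was 0.29. At 3 months it was smaller in BD 3 for 8 of the 9, all but Decr1, with a median SD of 0.24 against 0.61, but so it was for 85% of all probes. Without CD 3 rat 4 it was smaller for 7 of the 9 and for 78.1% of all probes. At both ages the control arrays lay on more slides than the BASE-diet arrays, with CD 3 and CD 14 on 3 each and BD 14 on 1. The part of the slides in these SDs was not tested.

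Over the 22 arrays, which share the reference, the slides and the 4 groups, the 36 pairs of genes had Pearson r of -0.21 to 0.91 with a median of 0.53. The 15 pairs among Cpt1a, Slc25a20, Cpt2, Acadm, Hadha and Hadhb, a group made after these values were seen, had r of 0.61 to 0.91, and 0.50 to 0.88 with the group means removed. Acadl had r of 0.35 to 0.54 with these 6 genes, and 0.06 to 0.39 with the group means removed. The closest pair was Hadha, on the brighter of its probes, and Hadhb, with r = 0.91 and Spearman rho = 0.81 (permutation p of 1e-05, the smallest the 100000 permutations can give, and 4e-05, adjusted over the 36 pairs 0.00012 and 0.00036). Without the 2 rats farthest from the Hadhb median, CD 3 rat 4 and CD 14 rat 3, r was 0.80. On the slide with 8 arrays it was 0.90, and on that with BD 3 and CD 14 rats, 6 arrays, 0.82. With the group means taken out r was 0.88 and rho 0.42. Slc25a20 had the highest median r with the other 8 genes, 0.78, and Acadvl (0.03) and Decr1 (0.15) the lowest. Acadvl and Decr1 had an r of 0.57 with each other.

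**Figure D3:**
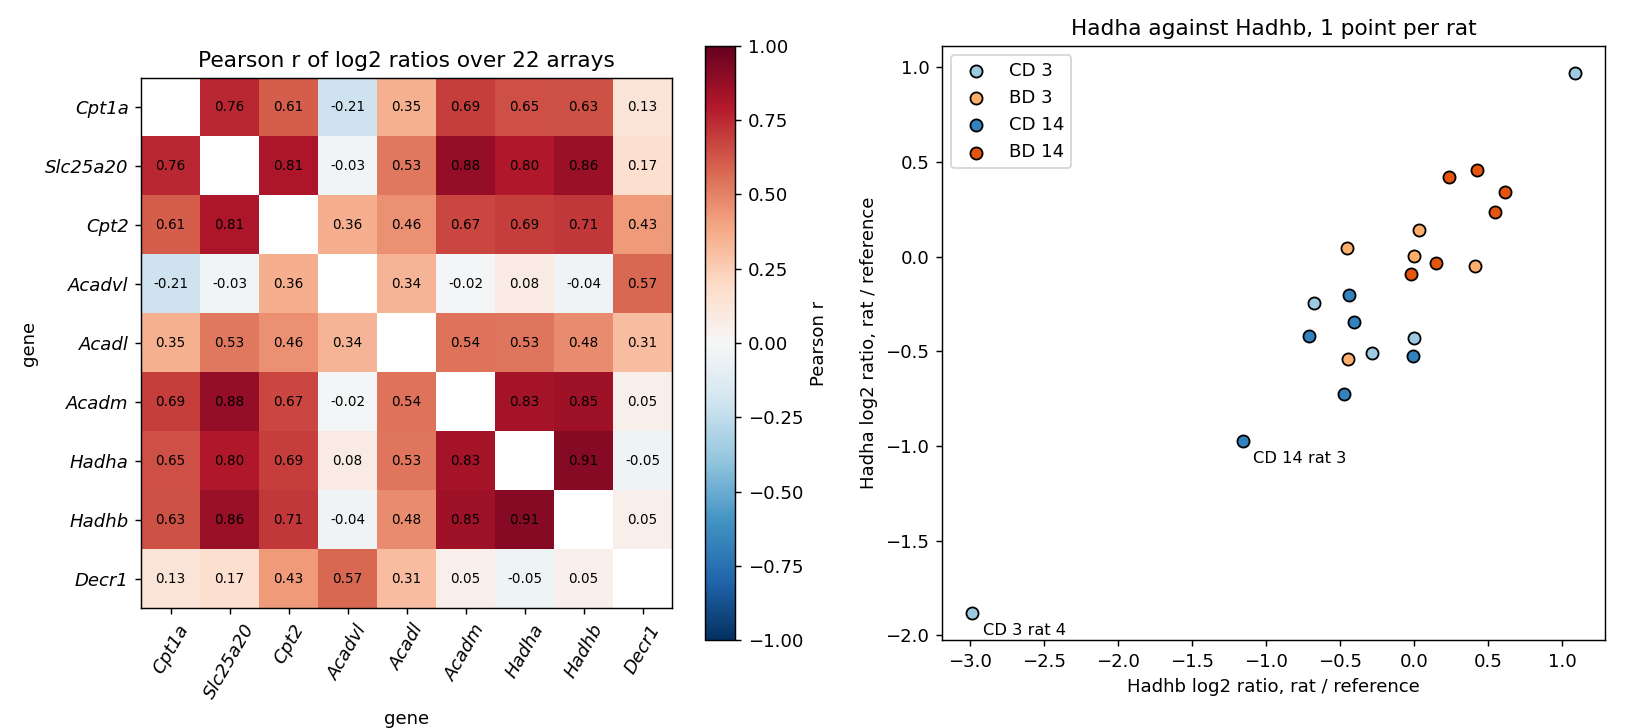
Left, Pearson r of the log2 ratios over the 22 arrays for each pair of the 9 genes, from -0.21 to 0.91, with the r of Acadvl (median 0.03) and Decr1 (median 0.15) the lowest. Right, Hadha against Hadhb (log2 ratio to the reference, 1 point per rat, colour by group), with the 2 rats named that are lowest in most of the genes.

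Of 16518 other genes compared, 4 of the 5 most like the mean of the 9 over the 22 arrays were Eci1, the mitochondrial enoyl-CoA isomerase (Pearson r = 0.93), Acaa1b, a peroxisomal thiolase (0.88), Decr2, the peroxisomal counterpart of Decr1 (0.88), and Phyh, which starts the breakdown of phytanic acid (0.87). With the group means removed the r of these 4 lay between 0.81 and 0.91. The arrays share the reference and the slides, and these values are a description.

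Ketone body synthesis, the main outlet of hepatic fatty acid oxidation, is not part of the 9 genes. Of the 5 genes of ketogenesis and ketone handling described here, 4 had a higher mean in BD 14 than in CD 14, with a median of 0.22, and 3 a higher mean in BD 3 than in CD 3, with a median of 0.17, where 56.3% and 53.6% of all probes were higher. None passed after adjustment, and higher at an unadjusted p under 0.05 were 2 at 14 months (3.79% of all probes) and 0 at 3 months (4.99%). Acat1, the thiolase that joins 2 acetyl-CoA, was higher in BD 14 by 0.92 (standard error 0.37) and Slc16a6, a ketone body exporter, by 1.03 (0.47), and these were the 2 genes under 0.05. Slc16a6 ran from -1.29 to 1.80 in BD 14, and without BD 14 rat 2 its difference was 0.61. Bdh1, which makes hydroxybutyrate, differed by 0.17 at 3 months (0.084 to 0.37 with 1 rat left out, -0.049 with slides blocked) and 0.18 at 14 months (0.049 without CD 14 rat 3), and the monocarboxylate carrier Slc16a1 by -0.12 and 0.22. Oxct1, the enzyme of ketone body use that hepatocytes lack, differed by -0.13 and -0.31 with group SDs of 0.77 to 1.39.

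Among 16 tested genes of other mitochondrial oxidation enzymes, 15 had a higher mean in BD 14 than in CD 14 (median 0.31) and 12 in BD 3 than in CD 3 (median 0.20), where 56.3% and 53.6% of all probes were higher. Higher at an unadjusted p under 0.05 were 4 at 14 months and 1 at 3 months (3.79% and 4.99% of all probes were), and none passed after adjustment. Eci1 was 1.32 higher at 14 months (standard error 0.39), with CD 14 from -2.93 to -0.12 and BD 14 from -0.44 to 0.68. Without CD 14 rat 3 it was 0.99 higher. Acot2, a mitochondrial acyl-CoA thioesterase, was 0.97 higher (0.35), and 0.65 higher without CD 14 rat 3. Acaa2, the last thiolase of the medium-chain cycle, was 1.00 higher (0.41), and 0.90 higher without that rat. Its CD 14 rats, the highest at 0.03, did not overlap with its BD 14 rats, the lowest at 0.17. Of all probes 0.653% were higher in BD 14 without overlap. Hadh, the short-chain hydroxyacyl-CoA dehydrogenase, differed by 0.47 (0.19) at 3 months.

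The 10 genes of peroxisomal beta-oxidation, which shortens very long chains outside the mitochondrion and is the textbook target of Ppara in rodents, had larger list medians than the 9 genes at both ages, 0.93 at 14 months and 0.43 at 3 months. Higher at an unadjusted p under 0.05 were 6 of the 10 at 14 months (3.79% of all probes were) and 1 at 3 months (4.99%), and none passed after adjustment. Ech1 was higher in BD 14 by 1.15 (standard error 0.33), the carnitine octanoyltransferase Crot by 1.18 (0.35) and Acaa1b by 0.97 (0.32). Without CD 14 rat 3 the difference was 0.81 for Ech1 and 0.90 for Crot, and without CD 14 rat 6 it was 0.89 for Acaa1b. Ehhadh, the peroxisomal bifunctional enzyme, was higher by 1.12 (0.48) at 14 months and by 1.20 (0.52) at 3 months, which turned to -0.22 with slides blocked. The difference between the lists was not tested.

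The regulators showed no common direction at 3 months, where 6 of 11 tested genes were higher in BD 3 (median 0.03, 53.6% of all probes were higher). At 14 months 9 of 11 were higher in BD 14 (median 0.16, 56.3% of all probes were higher). Higher at an unadjusted p under 0.05 were 1 at 3 months (4.99% of all probes) and 2 at 14 months (3.79%), and none passed after adjustment. Ppara itself differed by 0.99 (standard error 0.56) at 3 months, 0.51 without CD 3 rat 3 and -0.82 with slides blocked, and by 0.14 (0.51) at 14 months. Lpin1, a phosphatidate phosphatase and coactivator, differed by -0.41 (0.42) at 3 months and by 1.20 (0.39) at 14 months, and Hnf4a, a hepatocyte nuclear receptor, by 0.27 (0.32) and 0.77 (0.29). Ppargc1b, a coactivator, differed by 0.97 (0.46) and -0.09 (0.42), Acacb, which makes the malonyl-CoA that inhibits Cpt1a, by 0.72 (0.61) and 0.57 (0.56), and Mlycd, which removes it, by -0.10 (0.21) and 0.26 (0.19). Without CD 3 rat 4 the 3-month differences were 0.39 for Acacb, 0.016 for Hnf4a and -0.80 for Lpin1, and without CD 14 rat 6 that of Acacb at 14 months was 0.33. Mlycd was at -0.0093 at 3 months without BD 3 rat 5 and at 0.13 at 14 months without CD 14 rat 3. Pdk4, which turns off pyruvate oxidation, differed by 0.00 (0.37) and -0.06 (0.34). Ppargc1a was detected on 13 arrays and was not tested.

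Of the 4 genes of carnitine supply, 2 were higher at each age (53.6% of all probes were at 3 months and 56.3% at 14 months) and their medians were 0.08 and -0.01. The carnitine transporter Slc22a5 differed by 1.07 (standard error 0.47, limma, unadjusted p = 0.0322, adjusted p = 0.653) at 3 months, 0.63 without CD 3 rat 4, and by 0.00 (0.43) at 14 months. The 12 reference genes of other mitochondrial functions had medians of 0.05 and 0.09, close to those of all probes. Only Cox4i1, a subunit of cytochrome oxidase, was under an unadjusted p of 0.05 (7.11% of all probes were at 3 months and 4.6% at 14 months). Cox4i1 differed by 0.63 (0.23) at 3 months and by -0.09 (0.21) at 14 months. With slides blocked these were 0.078 and 0.46, the latter with an unadjusted p of 0.018 (limma, adjusted p = 0.514). The groups of 1 of the 12, Atp5b, an ATP synthase subunit named here after its values were seen, did not overlap at 14 months. Of all probes 0.653% were higher in BD 14 without overlap. Atp5b was 0.76 higher in BD 14 with a standard error of 0.49 (limma, unadjusted p = 0.139, adjusted p = 0.952). Markers of Kupffer cells and leukocytes had summed Cy5 signals of 5607 to 37450 in CD 14 (to 13163 without rat 6) and 5556 to 13995 in BD 14 (to 8654 without rat 5), and of 2633 to 8866 in CD 3 and 4142 to 8415 in BD 3, with 4 of the 7 markers detected on every array. Their part in the differences of the 9 genes was not tested.

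**Figure D4:**
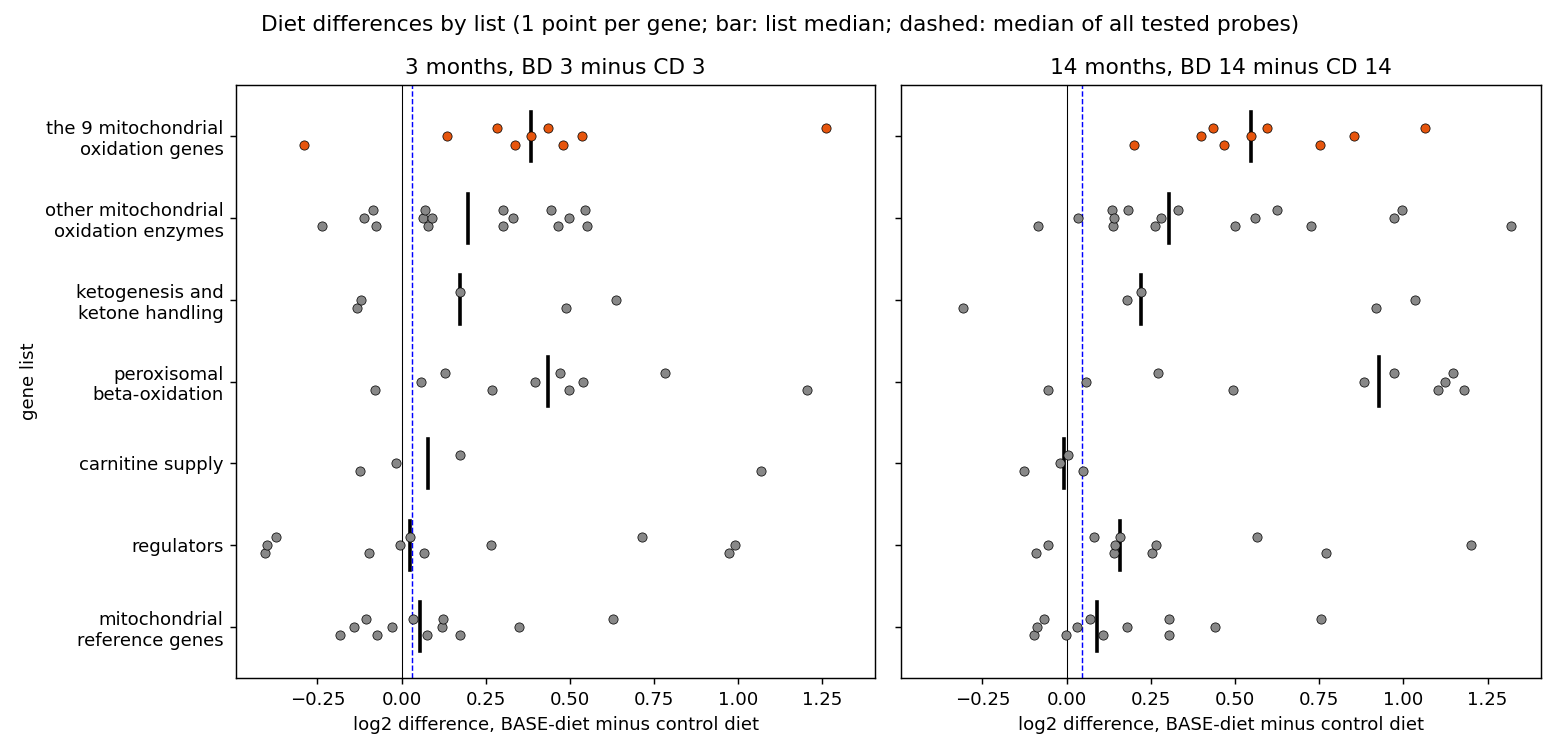
Log2 difference between BASE-diet and control diet for each tested gene of 7 lists at 3 months (left) and 14 months (right), with the list median as a bar and the median of all tested probes as a dashed line. The medians of the 9 genes (0.38 and 0.55), the 5 genes of ketogenesis and ketone handling (0.17 and 0.22) and peroxisomal beta-oxidation (0.43 and 0.93) lie to the right of the dashed line, and those of the reference genes (0.05 and 0.09) lie close to it.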

How the data were processed

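Liver RNA of 22 rats was hybridised to 2-colour Agilent arrays against a common reference. The deposited scanner files hold, per spot, the background-subtracted, dye-normalized Cy5 and Cy3 intensity and their log10 ratio, both made by the authors with Agilent Feature Extraction (10.7.3.1 per the labels, 10.10.1.1 per the file headers). A deposited log2 table of 3017 entries, chosen by the authors for significance, lists 0 of the 10 probes and was not used. Here log10 ratios were turned into log2, control and non-uniform spots were left out, spots of a probe were averaged, and 19434 of 30367 probes with spots well above background passed the filter. 698 of these lacked a value on some array. The 4 groups were fitted together with limma 3.58.1 (R 4.3.3), with Benjamini-Hochberg adjustment over all tested probes. The fit was run on simulated data with known changes. These data had independent noise, no slides and no differences in array quality, so they say nothing of the part of those here. The number of arrays and the spread between rats limit the precision. Each rat is 1 sample.

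For a gene with several probes the brightest in the mean was used. Named were all 9 genes, the genes of ketogenesis and ketone handling, Ppara, Ppargc1a, Acacb, Mlycd and Pdk4, from each other list up to 4 genes with an unadjusted p under 0.05 in a diet comparison, and 4 of the 5 genes most like the mean of the 9. Of the ketogenesis list 5 genes are counted, and its other genes are not reported here. The genes and lists were chosen with earlier results of these data known. Alternatives tried were normexp background with loess, Cy5 alone, median centring, other filters, blocks for slide and rat number, array weights, pairs of groups alone, left-out arrays, the other Hadha probe and the methods' analysis of variance. Dci and Peci, older names of listed genes, are not on the array. Promoter sequences and start sites are from RefSeq, build GRCr8, and probe positions from the files, build rn4.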

Additional observations from a re-analysis of the deposited data

Results flagged for a closer look

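Within the 4 groups of each of the 9 genes, 36 sets of values in all, 2 held a rat far from the rest of its group, by a rule that chance meets in about 1 of 20 sets. Slc25a20 was -1.79 in CD 3 rat 4 against -0.61 in the next lowest rat of that group. Hadha was -0.54 in BD 3 rat 3 against -0.05 in the next lowest.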

How the results depend on the processing

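None of the 9 genes passed in a comparison of diets or of times, in the diet-by-time test or in the test over 4 groups under any alternative, and between BD 14 and CD 3 the count with 1 rat left out ranged from 0 to 2 (Hadha and Hadhb, without CD 3 rat 2, where 7.27% of all probes passed). With 1 rat left out the median of the 9 ranged from 0.14 (without CD 3 rat 4) to 0.60 at 3 months and from 0.43 (without CD 14 rat 3) to 0.60 at 14 months, and that between CD 14 and CD 3 from -0.36 (without CD 3 rat 4) to 0.12. Without CD 3 rat 4 this difference with time was thus larger in size than the 3-month difference with diet. The number of the 9 with an unadjusted p under 0.05 then ranged from 0 (without CD 3 rat 4) to 6 (without CD 3 rat 2) at 3 months, where it was 2 with all rats, and from 2 (without CD 14 rat 3) to 6 at 14 months, where it was 4. Of all probes, in either direction, 4.6% passed with all rats at 14 months and 7.11% at 3 months, and 6.05% and 12.7% did at 3 months without CD 3 rats 4 and 2. Under the other alternatives it ran from 0 (slides blocked, 11.0% of all probes) to 4 (Cy5 alone, 15.2%) at 3 months and from 1 (slides blocked, 7.8% of all probes) to 7 (normexp with loess, array weights, only the groups compared, or without the 2 arrays with most non-uniform spots, 3.68% to 10.8%) at 14 months. The 1 gene of the 9 lower in CD 14 than in CD 3, Acadvl, no longer passed the unadjusted p with slides or rat numbers blocked, with array weights, with only the groups compared, or without any 1 of 5 rats. Of 2199 values of single genes under alternatives, 2131 of them from the comparisons of diets and 68 of Cpt1a and Acadvl from CD 14 against CD 3, 72 changed direction and 0 passed the adjusted threshold. The causes of these changes were not tested. With slides blocked, which at 14 months leaves the 6 BD 14 rats against CD 14 rats 4 and 5 on 1 slide, the 3-month difference was 0.20 for Acadvl, -0.049 for Bdh1, -0.31 for Acat1, 0.37 for Oxct1, -0.82 for Ppara, 0.24 for Mlycd, 0.55 for Pdk4 and -0.22 for Ehhadh. The 14-month difference was -0.20 for Decr1, -0.23 for Slc16a1, 0.059 for Pdk4, -0.76 for Slc22a5, 0.46 for Cox4i1 and 0.55 for Ppargc1b, and that of Cpt1a between CD 14 and CD 3 was -0.21. The median of all probes at 3 months was then 0.15. Leaving out CD 3 rat 4 and CD 14 rat 3 together, an alternative chosen after seeing the data, as were the SDs without them, gave at 3 months -0.027 for Hadha, -0.12 for Hadhb, -0.26 for Acaa2, 0.30 for Oxct1 and 0.13 for Pdk4, and at 14 months -0.018 for Decr1, -0.076 for Slc16a1, -0.31 for Slc22a5 and 0.15 for Ppargc1b. In Cy5 alone the 3-month difference was -0.36 for Decr1, 0.21 for Slc16a1, 1.15 for Pdk4 and 0.56 for Lpin1, and that at 14 months 0.58 for Oxct1, -0.044 for Ppara and 0.27 for Ppargc1b. Normexp with loess gave -0.013 for Acacb at 14 months and 0.070 for Pdk4 at 3 months, median centring -0.059 for Slc22a5 at 14 months, array weights 0.035 for Oxct1 at 3 months, and leaving out the 2 arrays with most non-uniform spots 0.021 for Pdk4 and -0.048 for Slc22a5 at 14 months. With 1 rat left out, differences at 3 months ranged from -0.027 to 0.69 for Hadha, -0.12 to 0.89 for Hadhb, -0.26 to 0.78 for Acaa2, -0.51 to 0.30 for Oxct1, -0.38 to 0.24 for Pdk4 and -0.25 to 0.024 for Slc16a1. At 14 months they ranged from -0.018 to 0.29 for Decr1, -0.60 to 0.079 for Oxct1, -0.14 to 0.028 for Pdk4, -0.14 to 0.44 for Ppara, -0.30 to 0.18 for Ppargc1b, -0.076 to 0.41 for Slc16a1 and -0.31 to 0.24 for Slc22a5. The rats with the same number in different groups are different animals, and their deviations correlated at a median of -0.01 (-0.27 to 0.29), so the numbers do not pair them. With rat number as a replicate block the medians of the 9 were 0.38 and 0.55 and 0 passed. The authors' processed values could not be tried, since they list none of these probes.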
